A study of Mus musculus with 7 samples.

Results

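The 9 genes described here encode nuclear steroid receptors, a membrane estrogen receptor, aromatase and an estrogen-responsive gene, measured in neurons that carry a reporter for estrogen receptor alpha (ERα). They were chosen by symbol, from a list set by gene function with earlier results of these data known. They are 9 of the 24062 gene symbols counted. The receptors for estrogen among them are ERα (Esr1), ERβ (Esr2) and the G protein-coupled estrogen receptor (Gper1). Esrra, estrogen-related receptor alpha, is an orphan relative that does not bind estradiol. Pgr, the progesterone receptor, and Greb1, a chromatin-associated cofactor of estrogen receptors, are known as genes raised by estrogen. Cyp19a1 encodes aromatase, which makes estradiol from testosterone. Nr3c1 and Nr3c2 encode the glucocorticoid receptor and the mineralocorticoid receptor, both of which bind corticosterone.

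Steroid receptors of the nuclear family are held by chaperones, bind their hormone and act on genes as dimers together with coregulators. The medial preoptic area (MPA) of the hypothalamus is among the brain regions rich in ERα and aromatase, and estrogens raise progesterone receptor there. Gper1 is a receptor of another kind, with a membrane-spanning structure and signaling through G proteins.

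ZsGreen-positive neurons of the MPA were recorded in slices from female mice of the strain Esr1-ZsGreen, 10 to 14 weeks old, while the bath was warmed by 5 °C from 25 °C. The contents of neurons with a like response were drawn into the pipette, 2 neurons were pooled as 1 sample, and the RNA was amplified and sequenced. The samples comprised 4 temperature-responsive (TR) and 3 non-responsive (NR) samples, which share strain, reporter and warming and differ in the firing response. ZsGreen marks neurons in which the reporter construct is active, its control sequences are not given in the sources used here, and the labels do not say which neurons came from the same animal, so p-values measure the spread between these samples.

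Totals lay between 1914497 and 2814360 counts in TR samples and between 3309361 and 5125280 in NR samples, so that depth was lower in every TR sample. A floor of 3 counts corresponded to 0.564 to 1.62 CPM, the count scaled to a common library total with TMM normalization, and CPM is the unit of all levels below. The number of genes detected was also separated between the groups, with 19852 to 21177 in TR and 17818 to 19820 in NR samples. Neuronal markers were abundant in every sample, with a summed level of 5 genes of 2447 to 2810 CPM in TR and 2247 to 2588 CPM in NR. Markers of oligodendrocytes (5 genes, 2355 to 3773 CPM over the 7 samples), astrocytes (5 genes, 850 to 1063 CPM) and microglia (5 genes, 271 to 324 CPM) were also detected in every sample, and their part in the values below was not tested. Counts of the Y-linked gene Ddx3y (684 to 1150) and of Xist (2 to 14) in the 7 samples go against the stated female sex of the mice.

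All 9 genes had at least 3 counts in each of the 7 samples, and 6 had at least 10 in each. Esr2 and Cyp19a1 reached 10 counts in 2 of 7 samples and did not pass the filter of at least 10 counts in at least 3 samples, so that 7 genes were tested. The test was edgeR's quasi-likelihood test over 14407 genes, with a Benjamini-Hochberg adjusted p threshold of 0.05. It called 30.0% of all genes tested, 15.1% as higher and 14.9% as lower in TR samples. Of the 7 receptor and target genes tested, 1 passed the threshold, Gper1, which was higher in TR samples. The median log2 fold change, TR over NR, was 0.25 over the 7 genes and 0.0070 over all genes tested, and it was positive for 5 of the 7.

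**Figure D1:**
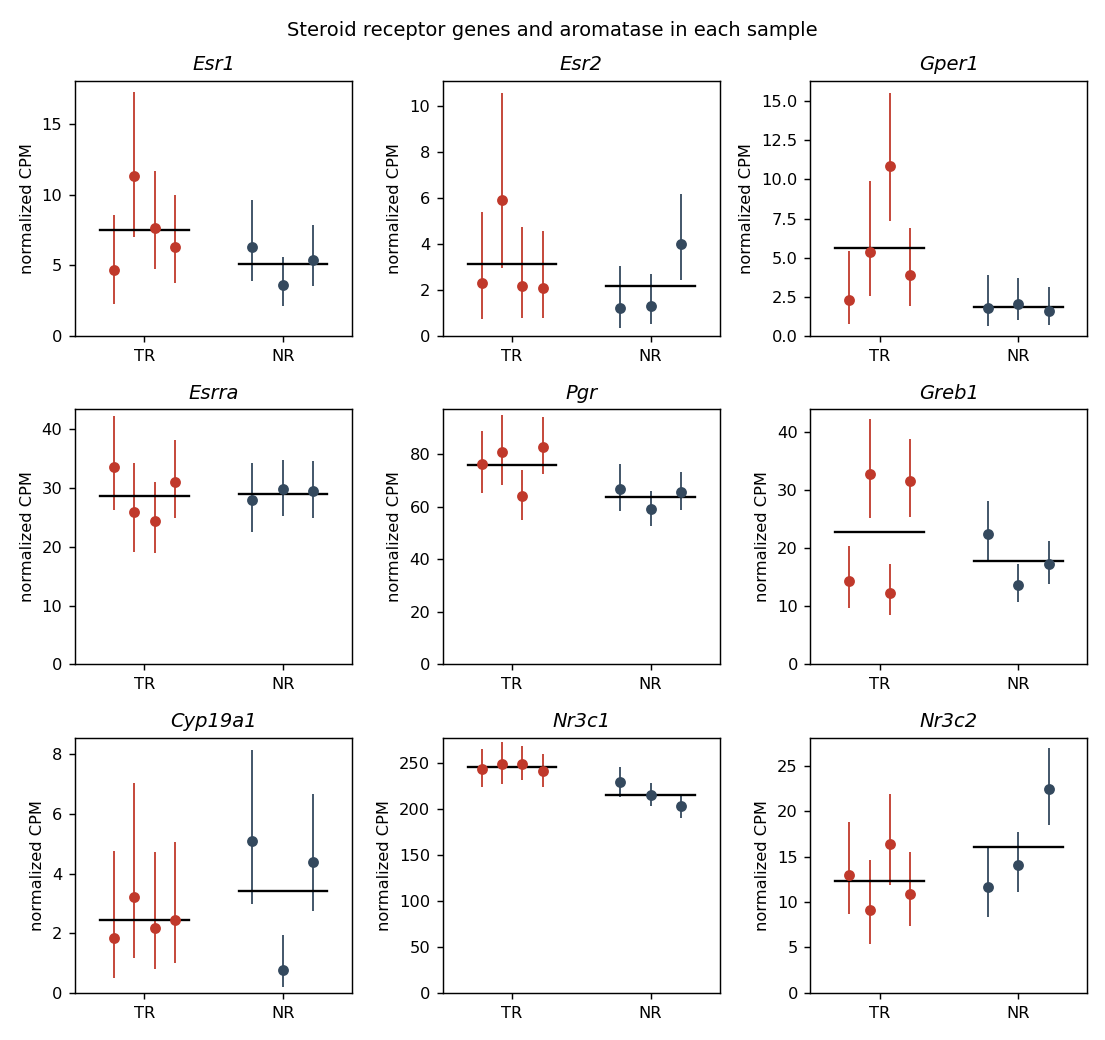
Normalized CPM (linear axis) of the 9 genes in each of the 4 temperature-responsive (TR, red) and 3 non-responsive (NR, blue) samples, in replicate order; vertical lines are exact 95% Poisson intervals, which cover counting error only, and horizontal lines are group means. Gper1 and Nr3c1 show no overlap between the groups, as do 35.4% of all genes tested, and the other 7 genes overlap.

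Because Gper1 passed the test and Pgr and Greb1 are textbook estrogen-raised genes, the 250 bases before their RefSeq start are shown, 5′ to 3′ on the gene's strand in GRCm38.p6. Capitals mark matches to the estrogen response half-site GGTCA on either strand. For Greb1, the window of the start farther upstream is given.
Gper1, chr5:139422929-139423178, + strand: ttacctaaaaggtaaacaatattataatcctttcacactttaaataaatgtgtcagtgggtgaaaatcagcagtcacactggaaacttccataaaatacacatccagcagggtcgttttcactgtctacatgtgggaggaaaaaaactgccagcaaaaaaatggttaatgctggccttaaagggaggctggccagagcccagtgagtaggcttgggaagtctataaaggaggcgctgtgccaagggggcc
Pgr, chr9:8899583-8899832, + strand: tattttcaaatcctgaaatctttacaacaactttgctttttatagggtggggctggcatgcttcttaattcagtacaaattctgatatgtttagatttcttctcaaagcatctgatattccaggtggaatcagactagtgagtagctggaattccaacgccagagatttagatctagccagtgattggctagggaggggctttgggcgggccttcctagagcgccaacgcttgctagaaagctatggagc
Greb1, chr12:16800887-16801136, - strand: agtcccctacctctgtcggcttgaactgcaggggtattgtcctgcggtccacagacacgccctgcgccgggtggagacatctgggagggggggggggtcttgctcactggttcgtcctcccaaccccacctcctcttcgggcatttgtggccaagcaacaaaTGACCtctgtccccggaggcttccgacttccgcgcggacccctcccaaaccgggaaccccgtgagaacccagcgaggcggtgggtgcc

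The Gper1 and Pgr windows hold no half-site, and the Greb1 window shown holds 1, whose first base in gene direction lies 88 bases before the start and which reads on the opposite strand. The window of the other Greb1 start, not shown, holds 2 half-sites on the gene's strand, 194 and 85 bases before that start. RefSeq gave 12 such windows for 8 of the 9 genes. The full palindromic estrogen response element, searched on both strands, matched 0 of the 12 windows and 0.0639% of all 32851 promoters, and the palindromic glucocorticoid response element matched 0 of the 12 and 0.0304% of all. The half-site, which is part of the palindrome, matched 6 of the 12 windows, in Cyp19a1, Esr2, Greb1 and Nr3c2, and 35.2% of all promoters. These are matches of letters only and were not related to binding.

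Gper1 (chromosome 5, 139423151 to 139427800, + strand, mm10) was the member that differed between the groups. Its level was 2.32, 5.38, 10.9 and 3.86 CPM in TR samples 1 to 4 and 1.80, 2.07 and 1.60 CPM in NR samples 1 to 3. Every TR sample was above every NR sample, TR3 was the highest, and TR1 lay close to the NR samples. The counts behind these levels were low, at 5, 10, 30 and 11 in TR and 6, 11 and 8 in NR samples.

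The mean of Gper1 was 5.62 CPM ± 3.73 (SD, n = 4) in TR and 1.82 CPM ± 0.235 (SD, n = 3) in NR. The log2 fold change was 1.62 (SE 0.534, edgeR adjusted p = 0.0236), a fold of 3.08 with a 95% interval of 1.44 to 6.60. The spread was uneven, since the TR samples varied more than counting noise (chi-square per degree of freedom 6.20) and the NR samples did not (0.155). The groups of 17.2% of all genes tested were likewise separated with TR higher. The call was lost without TR3 (log2 fold change 1.05, adjusted p = 0.189), without NR2 (1.74, adjusted p = 0.0524) and without NR3 (1.53, adjusted p = 0.0692). It was also lost with the replicate number as a block (adjusted p = 0.0601) and with genes detected per sample as covariate (1.59, adjusted p = 0.418).

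Gper1 is expressed in endothelium as well as in neurons. Levels of 5 endothelial markers were therefore set beside it: Cldn5, a tight junction protein, Pecam1 and Cdh5, adhesion molecules of vessel lining, and Flt1 and Tek, vascular growth factor and angiopoietin receptors. Their summed level was 92.9, 71.6, 189.8 and 62.9 CPM in TR samples 1 to 4 and 39.8, 35.4 and 11.8 CPM in NR samples 1 to 3. The sum was separated between the groups, and TR3 was highest for the sum as for Gper1.

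By edgeR's adjusted p, 4 of the 5 endothelial markers were higher in TR, against 15.1% of all genes tested, with a median log2 fold change of 1.95 over the 5. Examples are Pecam1 (2.04, SE 0.431, adjusted p = 0.00133) and Cldn5 (1.71, SE 0.347, adjusted p = 0.00208). None of the 5 was at or under 3 counts in all samples, although Cdh5 had 1 count in NR3. With samples left out, the calls of Pecam1 and Cldn5 held, that of Cdh5 was lost without NR2 (adjusted p = 0.0567) and that of Tek without NR3 (adjusted p = 0.0514). The part of endothelial RNA in the Gper1 difference was not tested, and in pooled samples a greater share of such RNA and more Gper1 RNA per cell cannot be told apart.

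**Figure D2:**
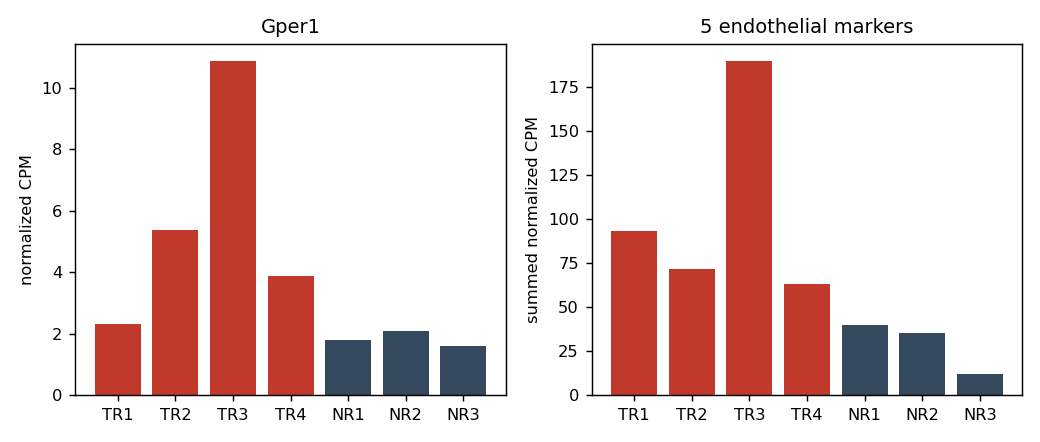
Normalized CPM of Gper1 (left, linear axis from 0) and summed normalized CPM of the 5 endothelial markers (right) in each sample, TR in red and NR in blue; bars are single samples and carry no error. TR3 is the highest bar in both panels, at 10.9 and 189.8 CPM, and all NR bars are below all TR bars.

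The genes whose pattern over the 7 samples was most like that of Gper1 were named after its values had been seen. Likeness was the root mean square difference of centred log2 CPM over the 7 samples, and its median over 14406 genes was 0.839. The nearest were Emp1, an epithelial membrane protein (0.251), Angpt2, angiopoietin 2 (0.297), and Podxl, podocalyxin, a surface sialomucin (0.327). Emp1 reached 68.2 CPM in TR3 and lay between 10.5 and 24.2 CPM in the other samples. Podxl reached 38.1 CPM in TR3 and Angpt2 9.80 CPM, the highest value of each.

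Esr1 (chromosome 10, 4611593 to 5005614, + strand), the gene the reporter is named for, was detected in every sample at low counts, between 10 and 27. Its level was 4.64, 11.3, 7.62 and 6.32 CPM in TR samples 1 to 4 and 6.29, 3.57 and 5.40 CPM in NR samples 1 to 3. The groups overlapped, with TR2 highest and NR2 lowest. The means were 7.47 CPM ± 2.83 (SD, n = 4) and 5.09 CPM ± 1.39 (SD, n = 3). The log2 fold change of 0.55 (SE 0.383, edgeR adjusted p = 0.286) had a 95% interval of -0.24 to 1.34, so that neither equal levels nor a rise of more than 1 on the log2 scale lay outside it.

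The 3 genes most like Esr1 in pattern over the 7 samples were Nek8, a ciliary kinase (root mean square difference 0.127), Runx2, a transcription factor known from bone (0.149), and Znrf3, a ubiquitin ligase of Wnt receptors (0.151). The median over 14406 genes was 0.523. Of these 3, Znrf3 passed the threshold (log2 fold change 0.64, adjusted p = 0.0345), but not without TR2, TR3, TR4 or NR2 (adjusted p 0.0528 to 0.183).

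Esr2 (chromosome 12, 76120419 to 76177259, - strand) was close to the floor. It had 5, 11, 6 and 6 counts in TR samples 1 to 4 and 4, 7 and 20 counts in NR samples 1 to 3, or 2.32, 5.92, 2.18 and 2.11 CPM and 1.2, 1.32 and 4.00 CPM. In each group 1 sample stood above the others, TR2 and NR3, and the groups overlapped. The means were 3.13 CPM ± 1.86 (SD, n = 4) and 2.17 CPM ± 1.59 (SD, n = 3). In a fit without the count filter, over 22797 genes, the log2 fold change was 0.34 (SE 0.611, adjusted p = 0.700).

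Esrra (chromosome 19, 6910977 to 6921813, - strand) was the evenest of the estrogen receptor relatives. Its level was 33.4, 25.8, 24.3 and 30.9 CPM in TR samples 1 to 4 and 27.9, 29.7 and 29.4 CPM in NR samples 1 to 3. All NR values lay within the range of the TR values, and the spread within groups was that of counting noise (chi-square per degree of freedom 0.964). The means were 28.6 CPM ± 4.27 (SD, n = 4) and 29.0 CPM ± 1.00 (SD, n = 3). The log2 fold change was -0.021 (SE 0.170, edgeR adjusted p = 0.940), with a 95% interval of -0.37 to 0.33, and its sign changed with upper quartile normalization (0.045). Exons of Trmt112 and Mir6990 overlap 2.07% of its exonic bases on the same strand and 1.66% on the other.

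The ratio of Esr1 to Esrra counts within a sample needs no scaling of libraries. On the log2 scale, with 0.5 counts added to each gene, it was -1.97 ± 0.70 (SD, n = 4) in TR and -2.52 ± 0.46 (SD, n = 3) in NR. A two-sided exact permutation test over samples placed the difference of 0.55 within the spread (p = 0.286, adjusted over 2 ratios 0.286). The smallest p that 4 samples against 3 allow is 0.0286.

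**Figure D3:**
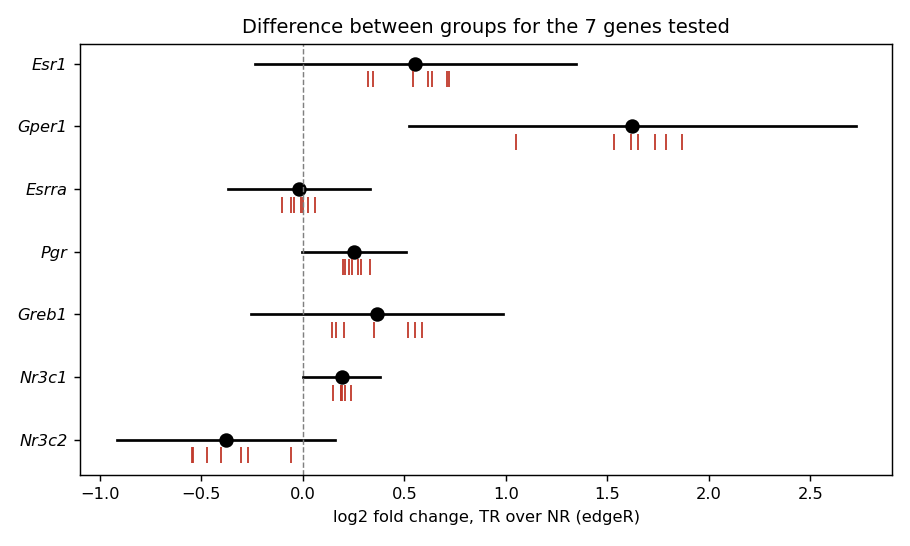
Log2 fold change, TR over NR (edgeR), of the 7 genes tested; black dots and bars are estimates with 95% intervals and red ticks are the estimates when each sample was omitted. The interval of Gper1 spans 0.52 to 2.72 and lies above 0, as does that of Nr3c1, which starts at 0.0027, whereas the intervals of the other 5 genes include 0.

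Pgr (chromosome 9, 8899833 to 8968611, + strand) was the most abundant of the estrogen-raised genes among the 9. Its level was 76.2, 80.8, 63.9 and 82.6 CPM in TR samples 1 to 4 and 66.8, 59.1 and 65.5 CPM in NR samples 1 to 3. TR3 lay among the NR samples and the other TR samples lay above them. The means were 75.8 CPM ± 8.41 (SD, n = 4) and 63.8 CPM ± 4.13 (SD, n = 3). The log2 fold change of 0.25 (SE 0.124, 95% interval -0.0059 to 0.51) did not pass the threshold (edgeR adjusted p = 0.130). The highest level of Pgr was 1.40 times its lowest over the 7 samples.

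Greb1 (chromosome 12, 16670615 to 16800886, - strand) varied most among samples of the same group, relative to counting noise. Its level was 14.4, 32.8, 12.3 and 31.6 CPM in TR samples 1 to 4 and 22.5, 13.7 and 17.2 CPM in NR samples 1 to 3. TR2 and TR4 were above all NR samples, and TR3 was the lowest of the 7. The chi-square per degree of freedom within groups was 9.49, and 12.8 in TR alone. The means were 22.8 CPM ± 10.9 (SD, n = 4) and 17.8 CPM ± 4.40 (SD, n = 3). Its log2 fold change was 0.36 (SE 0.296, edgeR adjusted p = 0.377) with a 95% interval of -0.26 to 0.99. Its exons share 7.68% of their bases with Gm48140 on the other strand, and how reads over these bases were counted is not known.

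TR3 was the lowest TR sample for both Pgr and Greb1. TR1 was above every NR sample for Pgr and below NR1 and NR3 for Greb1.

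Cyp19a1 (chromosome 9, 54165937 to 54268110, - strand), which encodes aromatase, had 4, 6, 6 and 7 counts in TR samples 1 to 4 and 17, 4 and 22 counts in NR samples 1 to 3. These counts gave 1.86, 3.23, 2.18 and 2.46 CPM in TR and 5.09, 0.752 and 4.40 CPM in NR. NR1 and NR3 were above every TR sample and NR2 was below every TR sample. The TR samples differed by no more than counting noise (chi-square per degree of freedom 0.287), whereas the NR samples differed by more (8.09). The means were 2.43 CPM ± 0.586 (SD, n = 4) and 3.42 CPM ± 2.33 (SD, n = 3). In the fit without the count filter the log2 fold change was -0.55 (SE 0.587, adjusted p = 0.50).

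Nr3c1 (chromosome 18, 39410545 to 39519421, - strand), the glucocorticoid receptor, had the most counts of the 9 genes, between 463 and 1144. Its level was 243.8, 249.3, 249.4 and 241.0 CPM in TR samples 1 to 4 and 228.9, 215.2 and 202.8 CPM in NR samples 1 to 3. The groups did not overlap, and the difference between them was small. The means were 246 CPM ± 4.14 (SD, n = 4) and 216 CPM ± 13.1 (SD, n = 3). A log2 fold change of 0.19 (SE 0.0912, 95% interval 0.0027 to 0.38) was estimated. The unadjusted p of 0.0470 from edgeR became 0.116 after adjustment and missed the threshold, and 41.3% of all genes tested had an unadjusted p under 0.05. Upper quartile normalization brought it past the threshold (0.26, adjusted p = 0.0403). Other settings lowered it, to 0.023 with an offset for GC content (edgeR adjusted p = 0.872). With the replicate block and that offset together it was 0.0097 (adjusted p = 0.956). It was 0.099 with no filter (adjusted p = 0.491) and 0.092 with genes detected per sample as covariate (adjusted p = 0.836). The TR samples differed by less than counting noise (chi-square per degree of freedom 0.177).

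The 3 genes most like Nr3c1 in pattern over the 7 samples were Ctss, the lysosomal protease cathepsin S (root mean square difference 0.0238), Ccdc132 (0.0266) and Taok1, a kinase of the MAP kinase cascade (0.0281), against a median of 0.293 over 14406 genes. None of the 3 passed the threshold, with adjusted p between 0.0833 and 0.105.

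Nr3c2 (chromosome 8, 76899442 to 77245012, + strand), the mineralocorticoid receptor, had a level of 13.0, 9.15, 16.3 and 10.9 CPM in TR samples 1 to 4 and 11.7, 14.1 and 22.4 CPM in NR samples 1 to 3. The groups overlapped, and NR3 was the highest of the 7. The means were 12.3 CPM ± 3.09 (SD, n = 4) and 16.1 CPM ± 5.63 (SD, n = 3). Between groups the log2 fold change was -0.38 (SE 0.261, 95% interval -0.92 to 0.16, edgeR adjusted p = 0.283). Exons of Gm10649 share 3.82% of its exonic bases on the other strand.

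The 2 corticosteroid receptors thus had fold changes of opposite sign, and neither passed the threshold. Within a sample, the glucocorticoid receptor had 18.4, 26.5, 15.1 and 21.8 times the counts of the mineralocorticoid receptor in TR samples 1 to 4 and 19.4, 15.2 and 9.01 times in NR samples 1 to 3. The log2 ratio was 4.32 ± 0.34 (SD, n = 4) in TR and 3.79 ± 0.56 (SD, n = 3) in NR, and the groups overlapped. By the same two-sided exact permutation test the difference of 0.53 was within the spread (p = 0.229, adjusted over 2 ratios 0.286).

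**Figure D4:**
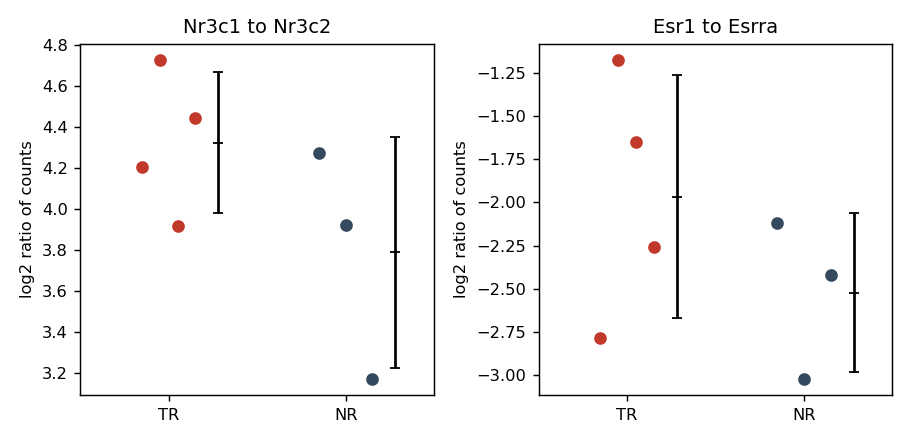
Log2 ratio of counts within each sample, with 0.5 counts added to each gene, for Nr3c1 to Nr3c2 (left) and Esr1 to Esrra (right), both axes not starting at 0; dots are samples, TR in red and NR in blue, and bars are means with SD. For both ratios the highest sample is a TR sample, the lowest of Nr3c1 to Nr3c2 is NR3 at 3.17, and the groups overlap.

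Levels can be compared between genes only per length, here in mean CPM per kilobase of the union of exons over the 7 samples. Nr3c1 was highest at 30.3 CPM per kilobase, above 90.8% of all symbols and 84.8% of the genes tested. Pgr followed at 8.27 and Esrra at 6.56, and then Greb1 at 2.16, Nr3c2 at 2.15 and Gper1 at 1.57 CPM per kilobase. Esr2 (0.808), Cyp19a1 (0.631) and Esr1 (0.472 CPM per kilobase) were lowest. Esr1 was above 25.8% of all symbols, but above only 0.85% of the genes tested. The genes tested were selected by counts and not by counts per length. Esr1 has 13661 bases in its union of exons and 6339 in its longest transcript, so that this rank also rests on the length chosen.

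Neighbours in this order were compared within each sample, as a description, since the same 7 samples set the order. Nr3c1 was above Pgr, Pgr above Esrra and Esrra above Greb1 in 7 of 7 samples each. The mean log2 differences of these pairs were 1.88 ± 0.149, 0.33 ± 0.210 and 1.70 ± 0.599 (SD, n = 7). In the other 5 neighbouring pairs the mean log2 difference, between -0.051 and 0.81, was smaller than its SD, which lay between 0.711 and 1.15. The order depended on the length used. With the longest transcript, Esrra came above Pgr, so that their difference rests on the length chosen. Esr1 then came above Esr2 and stood at 1.02 CPM per kilobase, above 37.0% of all symbols.

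**Figure D5:**
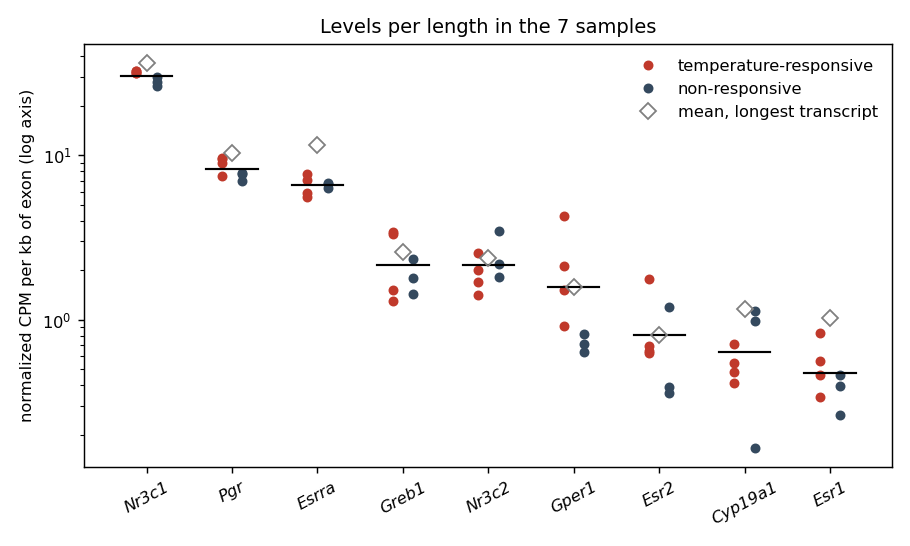
Normalized CPM per kilobase of exon (log axis) of the 9 genes in order of their mean; dots are samples, TR in red and NR in blue, lines are means over the 7 samples, and open diamonds are means with the length of the longest transcript. Nr3c1 stands at 30.3 CPM per kilobase and Esr1 at 0.472, and the diamonds of Esrra and Pgr are in the opposite order to their lines.

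Genes that act with these receptors were counted from lists set by function, beside the 30.0% of all genes tested that passed the threshold. The lists were set with earlier results of these data known. Of 14 chaperones and cochaperones of steroid receptors, 14 were tested, 4 were higher and 5 lower in TR, or 64.3%. Under 18 alternatives 7 to 9 were called, and 0 with genes detected per sample as covariate. Ptges3, the cochaperone p23, was higher (log2 fold change 0.89, SE 0.123, adjusted p = 6.59e-05), as were Dnaja1, an Hsp40 protein (0.67), Hsp90aa1 and Ppid. Stub1, the ubiquitin ligase CHIP, was lower (-0.75, SE 0.151, adjusted p = 0.000924), as were Hsp90ab1, Stip1, Fkbp4 and Hspa4. The 2 cytosolic Hsp90 genes thus differed in opposite directions, Hsp90aa1 from 118 CPM ± 19.6 (SD, n = 3) in NR to 151 CPM ± 16.2 (SD, n = 4) in TR and Hsp90ab1 from 544 CPM ± 28.6 (SD, n = 3) to 428 CPM ± 15.2 (SD, n = 4). Their log2 fold changes lay between 0.28 and 0.50 for Hsp90aa1 and between -0.38 and -0.31 for Hsp90ab1 with a sample left out. The call of Hsp90aa1 was lost without TR1, TR2, NR2 or NR3 (adjusted p 0.0519 to 0.120), that of Hsp90ab1 without NR3 (adjusted p = 0.0559) and that of Hspa4 without TR1, TR2, TR4, NR1 or NR2 (adjusted p 0.0710 to 0.203). Stub1 lost its call with the replicate block and GC offset together (-0.47, adjusted p = 0.0676), and Hsp90aa1 and Ppid lost theirs with the GC offset alone. Hspa4 lost its call under 14 alternatives in all, among them DESeq2, limma-voom and downsampling. The median log2 fold change of the 14 was -0.071.

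Of 17 coregulators, 2 were higher and 5 lower, or 41.2%, with a median log2 fold change of -0.19. Under 18 alternatives 3 to 8 were called, and 0 with genes detected per sample as covariate. The acetyltransferase Crebbp was lower (-0.72, SE 0.141, adjusted p = 0.000778), as was the arginine methyltransferase Prmt1 (-1.16, SE 0.280, adjusted p = 0.00385). The call of Prmt1 was lost without NR3 (-0.82, adjusted p = 0.0505). Ncoa2, a p160 coactivator, was higher (0.46), and the p160 coactivators Ncoa1 (-0.22) and Ncoa3 (-0.073) were not called. Foxa1, a pioneer factor of estrogen receptor binding, was higher at 14 to 33 counts (0.88, adjusted p = 0.0389), and its call was lost under 13 alternatives, including the omission of any sample, where its adjusted p was between 0.0523 and 0.0983.

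Of 34 genes of steroid synthesis and metabolism, 32 were in the files and 17 were tested, with 3 higher and 6 lower, or 52.9%, and a median of 0.094. Under 18 alternatives 4 to 9 were called, and 0 with genes detected per sample as covariate. With the GC offset 4 were called, in a fit that called 3447 of all 14407 genes. Fdxr, Hsd17b10 and Srd5a3 (edgeR adjusted p = 0.0394, 0.0493 and 0.04999) lost their calls under 10, 16 and 15 alternatives. Among genes of synthesis from cholesterol, some were close to the floor. Cyp11a1, the side-chain cleavage enzyme, had between 1 and 14 counts, and Cyp17a1, which makes androgens, between 0 and 9. Others were well above it, such as Fdx1 with 89 to 247 counts and Fdxr with 26 to 200. Among enzymes that convert or inactivate steroids, Hsd17b11 was higher (0.74, SE 0.174, adjusted p = 0.00279), as was Hsd11b1, which regenerates corticosterone (0.51, SE 0.152, adjusted p = 0.0133, and 0.0547 to 0.0596 without TR1 or NR3). Cyp46a1, the cholesterol 24-hydroxylase of neurons, was lower (-0.78, SE 0.139, adjusted p = 0.000558), as was the sulfotransferase Sult2b1 (-0.95, SE 0.265, adjusted p = 0.00902). Sult2b1 lost its call without NR2 (-0.62, adjusted p = 0.134), and Hsd11b1, named after its values had been seen, lost its call with the GC offset.

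Genes known to be raised by estrogen in other tissues or in hypothalamus showed 1 higher and 3 lower of 15 tested among 18, or 26.7%, with a median of -0.079. Igfbp4, a binding protein of insulin-like growth factors, was lower (-0.80, SE 0.171, adjusted p = 0.00148), as were Penk, proenkephalin (-0.68, SE 0.119, adjusted p = 0.000365), and the neuropeptide gene Gal. Cxcl12, a chemokine gene, was higher (0.80). The call of Cxcl12 was lost without TR1, TR2, TR3, NR2 or NR3 (adjusted p 0.0567 to 0.145), and that of Gal without NR2 or NR3 (adjusted p 0.0762 to 0.0763). The oxytocin receptor gene Oxtr had a log2 fold change of -0.35 and was not called.

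Genes raised by glucocorticoids showed 4 higher and 0 lower of 14, or 28.6%, with a median of 0.20. Mt1, a metallothionein (0.70, SE 0.134, adjusted p = 0.000915), Sgk1, a kinase (0.56, SE 0.128, adjusted p = 0.00260), Tsc22d3, which encodes GILZ (0.33, SE 0.109, adjusted p = 0.0245), and Glul were higher by edgeR. The call of Tsc22d3 was lost with library size only (0.27, adjusted p = 0.0573), with no filter (0.24, adjusted p = 0.115), with the replicate block and GC offset together (0.29, adjusted p = 0.0683) and without TR1 (0.24, adjusted p = 0.0971), NR2 (0.33, adjusted p = 0.0710) or NR3 (0.29, adjusted p = 0.105), and that of Glul without TR1, TR2, TR3, NR2 or NR3 (adjusted p 0.0542 to 0.155). Glul also lost its call with library size only and with no filter. Fkbp5 (0.0098) and Per1 (0.087), which are among the best known glucocorticoid targets, were not called.

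Of 8 membrane steroid-binding proteins, 2 were higher, Pgrmc1 (0.44, SE 0.114, adjusted p = 0.00617) and Nenf (0.36, SE 0.104, adjusted p = 0.0102), or 25%. Both calls were lost without NR2 (adjusted p = 0.0512 and 0.0686), and that of Nenf also without NR3 (0.0681). Of 30 other nuclear receptors tested among 41, 3 were higher and 3 lower, or 20%, with a median of 0.076. The REV-ERB repressors of the circadian clock went in opposite directions, with Nr1d1 lower (-0.73, SE 0.106, adjusted p = 9.73e-05) and Nr1d2 higher (0.72, SE 0.120, adjusted p = 0.000303). Thra, a thyroid hormone receptor, was lower (-0.89, SE 0.174, adjusted p = 0.00141).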

How the data were processed

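RNA of ZsGreen-positive MPA neurons was amplified with an ultra-low input SMART-seq kit, and 4 TR and 3 NR samples of 2 neurons each were sequenced. Reads were mapped by the authors to mm10 (STAR 2.6.0) and cleared of duplicates (RmDup), and the authors deposited read counts per gene symbol from HTSeq 0.9.1, without normalization; their notes also name FastQC 0.72. Because the reads carry no molecular identifiers, duplicate removal may lower abundant genes. The annotation and strand setting are not given in the sources used here.

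Genes were kept where 3 or more samples had 10 or more counts (14407 genes), and edgeR 4.0.16 was applied (R 4.3.3; robust quasi-likelihood test, TMM, two-sided), with Benjamini-Hochberg adjustment over all genes tested. On simulated counts for 14195 genes, 69.5% of 197 changed genes were called, 100% in the right direction, and 5.52% of calls were false. The changed genes had a median estimated log2 fold change of 1.00 in size. The simulation did not model the difference in genes detected between the groups. It also changed a far smaller share of genes than the 30.0% called here, so 5.52% is not the error rate of the calls above. Alternatives used DESeq2 1.42.0, limma 3.58.1 and, for the GC offset, mgcv 1.9.3. Lengths and coordinates came from GENCODE M21 (GRCm38, the same build as mm10), in which 94.5% of the symbols were found. Promoters came from RefSeq (GRCm38.p6); the palindromic estrogen and glucocorticoid response elements and the half-site were searched on both strands. Totals were 1914497 to 5125280 counts per sample. Intervals and floors cover counting error only. Samples of a group differed by more than sampling noise, with a chi-square of 2.03 to 5.11 per degree of freedom.

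Groups came from the labels. Every member is named; in each list, the named genes are those past the threshold, with separated groups and at least 10 counts in every sample, up to the 3 with the largest change. Genes of like pattern are named by rule for Esr1 and Nr3c1. Other list genes and those like Gper1 were named after their values were seen. The members and lists were chosen with earlier results of these data known.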

Additional observations from a re-analysis of the deposited data

Results flagged for a closer look

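Of 11 measures checked in the 4 TR samples, 1 had a sample far from the others. The Esr2 level of TR2, 5.92 CPM, stood apart from 2.32, 2.18 and 2.11 CPM in TR1, TR3 and TR4, with a gap to the nearest of 0.944 of the whole range, above Dixon's 95% critical value for 4 samples. Chance marks about 1 in 20 groups. The values rest on 11 counts in TR2 and on 5 or 6 in the others, and the cause was not tested.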

How the results depend on the processing

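With genes detected per sample as covariate, 1 gene of 14407 passed the threshold (2062 at an unadjusted p under 0.05), none of the 7 members or of the list genes did (0), and the signs of Greb1 (-0.55) and Nr3c2 (0.49) reversed; genes detected and group were separated in these samples and cannot be told apart. The count of members past the threshold, 1 as reported, was 2 with upper quartile normalization, which added Nr3c1. It was 0 when every sample needed 10 counts and 0 after downsampling, where Gper1 was not tested, and 0 to 1 with a sample left out. With the replicate number as a block it was 0 (4124 genes in all), and 0 with the block and a GC offset, where 2813 genes passed against 4327. Same-numbered samples correlated at -0.128, -0.062 and 0.032 in their deviations from the group mean, and differently numbered samples at -0.170 to 0.222. So few correlations in such small groups cannot decide whether the numbers pair the samples, and pairing is not known. With a sample left out, 2620 (without NR3) to 4583 genes passed. DESeq2 called 3810 genes and limma-voom 4410. Of the calls, 50.3% were higher in TR, against 62.1% with upper quartile normalization and 40.8% with library size only. The sign of Esrra reversed with upper quartile normalization (0.045), the filter on every sample (0.0031), downsampling (0.066), the covariate (0.084) and, at -0.105 to 0.060, with a sample left out (TR2 or TR3). In the order per kilobase, 4 of 9 ranks held with the longest transcript, 7 with median CPM and 7 to 9 with a sample left out, Greb1 and Nr3c2 changing places. No sample had over 20 counts of Esr2, 22 of Cyp19a1, 27 of Esr1 or 30 of Gper1; whether depth limits these genes was not tested.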
